A study of Mus musculus with 39 samples.

Results

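Striatal microglia taken after lipopolysaccharide (LPS) were compared with those taken after saline in male mice of the CON:PLX arm, that is control prenatal treatment together with PLX. The libraries were chosen by their labels: 6 libraries of CON_PLX_LPS and 4 of CON_PLX_SAL, 10 of the 39 in the series. PLX is not defined in the labels, and both groups carry it. Each animal received LPS, at 4500 endotoxin units per gram of body weight, or saline by intraperitoneal injection at 8 to 10 weeks of age, and cells were collected 18 h later. Live cells with CD11b, low CD45 and surface P2RY12 were sorted, and their RNA was amplified with a kit that keeps no strand and removes no ribosomal RNA. The comparison shows what LPS did in this arm. It was set beside CON:CON (control prenatal treatment, no PLX; 4 LPS and 4 saline libraries) and MIA:PLX (prenatal maternal immune activation with PLX; 6 LPS and 3 saline libraries). Nothing in the labels states that replicates came from different animals. The p-values then measure only the spread between libraries, estimated over all 37 libraries of the fit, and that spread may be technical. Below, LPS and saline libraries mean CON_PLX_LPS and CON_PLX_SAL unless an arm is named, and CPM are counts scaled to a common library size with TMM factors.

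Microglia are the resident macrophages of the brain. At rest they express purinergic, chemokine and sialic acid receptors that survey the tissue, and a set of transcription factors upheld by TGF-beta keeps this state. LPS, from the outer membrane of Gram-negative bacteria, is passed by Cd14 to the receptor Tlr4. One adaptor route then frees NF-kB, which switches on cytokine and chemokine genes together with their own inhibitors. The other leads to type I interferon, whose receptor drives a complex with Stat2 and Irf9 to bind interferon-stimulated response elements and switch on antiviral genes.

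Library totals ran from 2640424 to 5746239 counts in LPS libraries and from 2764172 to 4538527 in saline libraries. Mitochondrial ribosomal RNA took 14.4% to 18.8% of counts after LPS and 10.2% to 11.9% after saline, with no overlap. Its part in the results below was not tested, beyond a fit without those genes that called 2359 genes higher and 1862 lower. Saline replicate 2 stood apart in blood-cell transcripts. Its summed neutrophil markers reached 115 CPM, against 0.223 to 3.57 CPM in the other saline libraries and 33.4 to 44.7 CPM in LPS libraries. Its summed erythroid markers reached 128 CPM, with 1.2 to 20.8 CPM in the other saline libraries and 0.554 to 4.81 CPM in LPS libraries. LPS replicate 1 stood apart on the second principal component, which held 12.5% of the variance over the 10 libraries, at 69.5 with the other LPS libraries at -31.1 to -11.5. For called genes, the value without a library is given where leaving that library out ended the call or moved the fold by over 1.5 times.

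**Figure D1:**
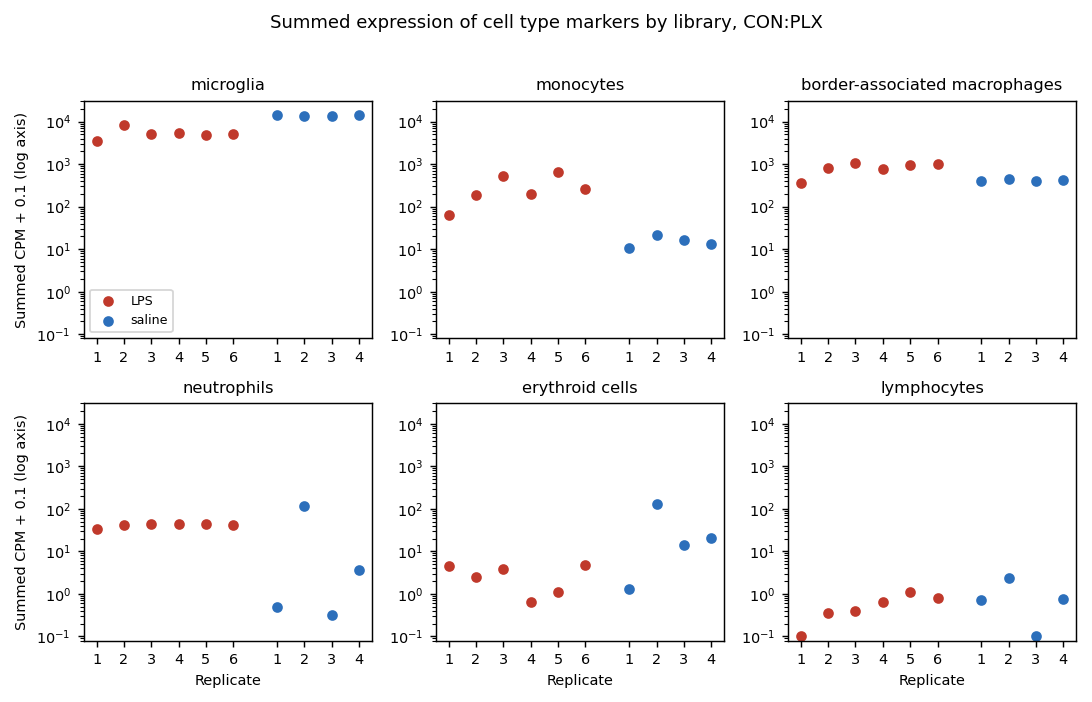
Summed CPM plus 0.1 (log axis) of 6 cell type marker lists in each of the 6 LPS libraries (red) and the 4 saline libraries (blue), by replicate number. Microglial markers are lower in every LPS library, monocyte markers are higher in every LPS library, and saline replicate 2 holds the highest neutrophil and erythroid sums.

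LPS changed the expression of 4228 of 13420 genes tested in this arm (31.5%), with 2354 higher (17.5%) and 1874 lower (14.0%), in the edgeR quasi-likelihood test at a Benjamini-Hochberg adjusted p under 0.05. Counts of list members called higher or lower below stand beside these 17.5% and 14.0% of all genes. More than 2-fold, 1432 were higher and 1125 lower. More than 16-fold, 167 were higher and 38 lower. Without saline replicate 2 the calls were 1942 higher (14.6%) and 1584 lower (11.9%), and without LPS replicate 1 as well they were 1767 and 1363. In 3220 of the called genes the LPS and saline libraries did not overlap. Over all genes the LPS libraries were all above the saline libraries in 14.0% and all below in 13.8%. The median log2 change of all genes tested was 0.03. In bulk RNA fewer cells of a type and less RNA per cell cannot be told apart, which holds for every result below.

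The gene with the largest rise among those with an average log2 CPM of at least 4 was Il1r2, a decoy receptor that binds interleukin 1 without signalling. Il1r2 stood at 27.8 to 390.3 CPM (median 273) in the LPS libraries, against 0, 0.442, 0.447 and 0.649 CPM in the saline libraries, a log2 change of 9.24 ± 1.11 (SE, edgeR adjusted p = 1.85e-07). Saa3, an acute-phase serum amyloid, stood at 118 to 1136 CPM (median 351) in the LPS libraries, against 0.399, 0, 1.56 and 1.30 CPM in the saline libraries, a log2 change of 9.09 ± 1.18 (SE, edgeR adjusted p = 1.22e-06). Both genes were at or near 0 in all saline libraries and far above them in all LPS libraries, and Saa3 reached its top value in LPS replicate 1. Msr1, a scavenger receptor that binds modified lipoproteins and bacteria, ranged over 531 to 1690.2 CPM (median 933) after LPS, against 3.20, 2.21, 4.24 and 7.14 CPM after saline (8.00 ± 0.52). The other genes with the largest rises were Cd300lf, an immune receptor for sphingolipids (7.58 ± 0.59), Spp1, the secreted phosphoprotein osteopontin (7.26 ± 0.76), Ehd1, an ATPase of endocytic recycling (6.88 ± 0.69), Cd244a, a SLAM-family receptor (6.58 ± 0.63), the cystine transporter Slc7a11 (6.49 ± 1.60), the transcript AW112010 (6.34 ± 0.66) and the matrix protein fibronectin, Fn1 (6.33 ± 0.87). Slc7a11 stood at 1572 CPM in LPS replicate 1 and at 18.1 to 119 CPM in the other LPS libraries. Slc7a11 was at 3.73 (log2 change) without LPS replicate 1. Saa3 was at 9.71 (log2 change) without saline replicate 3. Cd300lf was at 8.25 (log2 change) without saline replicate 4.

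**Figure D2:**
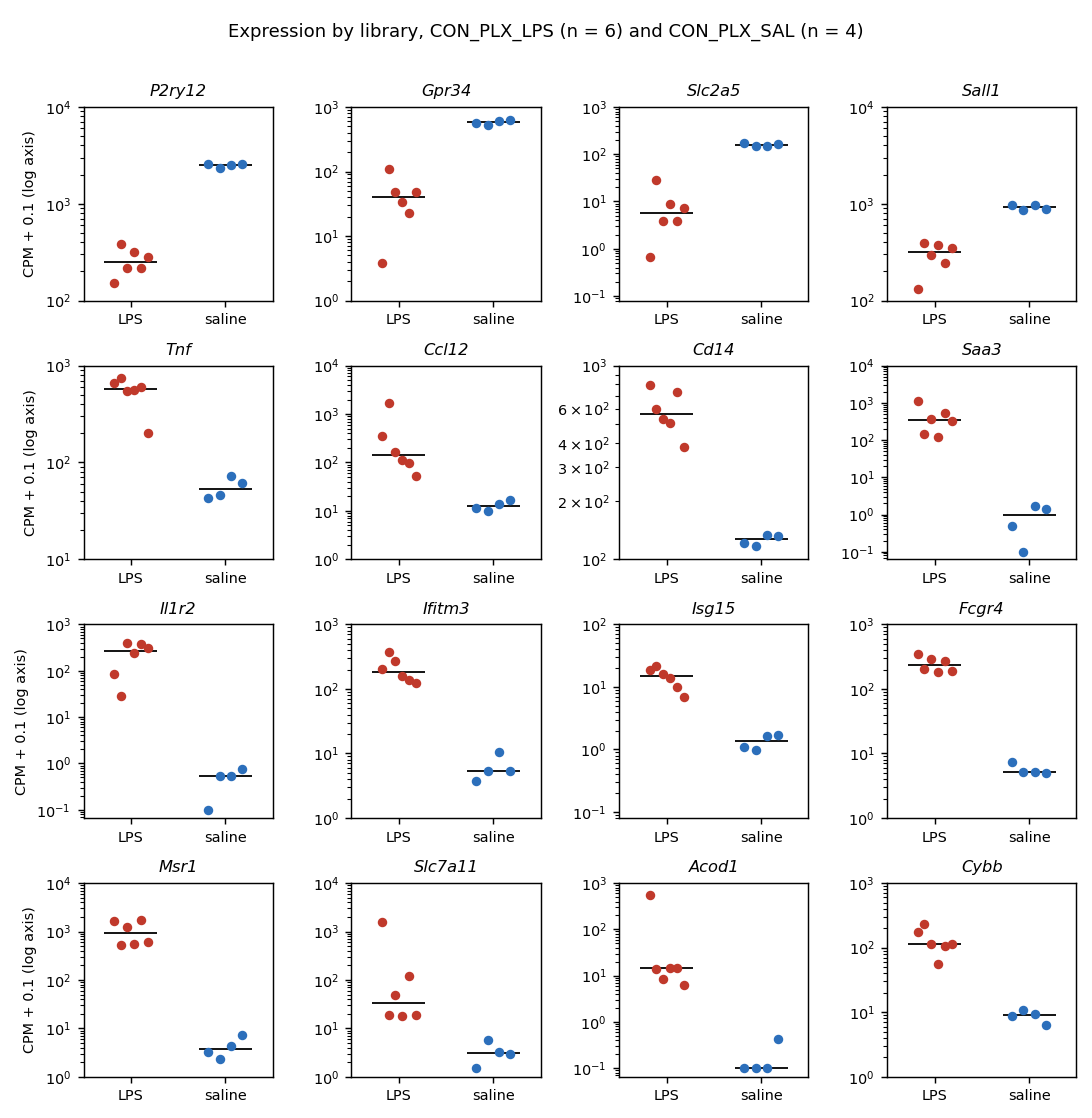
CPM plus 0.1 on a log axis for 16 genes in the LPS libraries (red, n = 6) and the saline libraries (blue, n = 4), 1 point per library with the group median as a bar. The groups do not overlap for any of the 16 genes, and LPS replicate 1 holds the highest Acod1, Slc7a11 and Saa3 and the lowest Gpr34, Slc2a5 and Sall1.

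Slc2a5, a fructose transporter, stood at 0.569 to 28.3 CPM (median 5.52) in the LPS libraries, against 172, 151, 146 and 166 CPM in the saline libraries, a log2 change of -4.18 ± 0.69 (SE, edgeR adjusted p = 2.6e-05). Gpr34, a lysophospholipid receptor, stood at 3.79 to 108 CPM (median 40.5) in the LPS libraries, against 572, 525, 613 and 626 CPM in the saline libraries, a log2 change of -3.73 ± 0.76 (SE, edgeR adjusted p = 0.000309). P2ry12, the ADP receptor whose protein was used in the sort, stood at 154 to 381 CPM (median 251) in the LPS libraries, against 2591, 2317, 2490.0 and 2582 CPM in the saline libraries, a log2 change of -3.25 ± 0.33 (SE, edgeR adjusted p = 3.71e-09). For these genes even the highest LPS library lay well under the lowest saline library, and LPS replicate 1 was the lowest of all. The other 7 genes with the largest falls were Cfap74, a ciliary protein (-3.27 ± 0.59), Nav2, a neuron navigator protein (-3.26 ± 0.46), Tppp, which promotes tubulin polymerization (-3.14 ± 0.51), the phospholipid flippase Atp8a2 (-3.12 ± 0.41), the transcription factor Ebf3 (-3.10 ± 0.33), the orphan receptor Gpr165 (-3.07 ± 0.55) and the junctional adhesion molecule Jam2 (-2.88 ± 0.35). Slc2a5 was at -5.04, Cfap74 at -4.02 and Gpr165 at -3.74 (log2 change) without LPS replicate 2.

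Among called genes other than predicted ones, the 8 largest gains in mean CPM were in 5 mitochondrial and 3 nuclear genes. The mitochondrial ribosomal RNAs mt-Rnr2 (0.90 ± 0.26) and mt-Rnr1 (0.92 ± 0.28) led, followed by mt-Co1 (0.78 ± 0.27), the class I light chain B2m (1.41 ± 0.18), the ferritin heavy chain Fth1 (2.58 ± 0.37), mt-Nd1 (1.39 ± 0.26), the complement component C1qb (1.15 ± 0.19) and mt-Cytb (0.94 ± 0.27). mt-Co1 lost its call without saline replicate 1 (0.76), saline replicate 3 (0.78) or saline replicate 4 (0.76). The largest losses included those of Malat1, a nuclear long noncoding RNA (-0.43 ± 0.15), P2ry12, the crosslinker of microtubules and actin Macf1 (-1.2 ± 0.17), Tgfbr1, the membrane skeleton protein Epb41l2 (-1.58 ± 0.25), the lysosomal protease Ctsd (-0.73 ± 0.20) and Ivns1abp, a kelch protein (-1.43 ± 0.23). Malat1 lost its call without LPS replicate 5 (-0.37) or saline replicate 1 (-0.38).

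Of 25 homeostatic microglia genes tested, 16 were lower and 0 higher after LPS, with a median log2 change of -1.39. Without LPS replicate 1 there were 15 lower, and without it and saline replicate 2 there were 14. The purinergic receptor P2ry13 (-1.54 ± 0.31), the sialic acid receptor Siglech (-2.16 ± 0.24), the TGF-beta receptor Tgfbr1 (-1.57 ± 0.20) and the Golgi protein Golm1 (-1.54 ± 0.19) fell beside those above. Tmem119, a microglial membrane protein, stood at 70.1 to 575 CPM (median 277) in the LPS libraries, against 919, 732, 845 and 867 CPM in the saline libraries, a log2 change of -1.52 ± 0.41 (SE, edgeR adjusted p = 0.00501). Also lower were the matrix-associated Olfml3 (-2.18 ± 0.48), the adhesion receptor Adgrg1 (-2.10 ± 0.39), Selplg, the ligand of P-selectin (-1.14 ± 0.38), and Trem2, a lipid-sensing receptor (-1.36 ± 0.25). Not every gene of this list passed. Cx3cr1, the fractalkine receptor, stood at 195 to 1395 CPM (median 616) in the LPS libraries, against 1702, 1724, 1754 and 1845 CPM in the saline libraries, a log2 change of -1.39 ± 0.59 (SE, edgeR adjusted p = 0.0737). The libraries did not overlap, but LPS replicate 2 (1395 CPM) was close to saline, and without it Cx3cr1 was called (-1.74). Csf1r, the receptor for colony-stimulating factor 1, stood at 2569 to 4394 CPM (median 3607) in the LPS libraries, against 4756, 4353, 4520.2 and 4469.6 CPM in the saline libraries, a log2 change of -0.34 ± 0.15 (SE, edgeR adjusted p = 0.0724), and was called without LPS replicate 2 (-0.41). The groups overlapped slightly for Csf1r. Cst3, a cysteine protease inhibitor (-0.10), and P2ry6, a UDP receptor (0.44), did not pass. Olfml3 was at -3.00 (log2 change) without LPS replicate 2.

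Of the sort and LPS receptor genes, Itgam (CD11b, 0.19 ± 0.24), Ptprc (CD45, -0.13 ± 0.18) and Tlr4 (-0.26 ± 0.36) did not pass, with edgeR adjusted p of 0.579, 0.634 and 0.626. The gate rests on P2RY12 protein, and the part of the fall in P2ry12 RNA in which cells entered it was not tested.

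Transcription factors of microglial identity moved both ways, with 5 of 18 higher and 5 lower. Sall1, a zinc finger factor that microglia need to keep their identity, stood at 133 to 397 CPM (median 319.9) in the LPS libraries, against 965, 857, 967 and 892 CPM in the saline libraries, a log2 change of -1.62 ± 0.39 (SE, edgeR adjusted p = 0.00141). Mef2c (-1.32 ± 0.20), Mef2a (-0.61 ± 0.14), Smad3 (-1.23 ± 0.28) and Cebpa (-0.94 ± 0.25) were also lower. The C/EBP factors Cebpb (2.34 ± 0.40) and Cebpd (1.43 ± 0.24) and Klf4 (1.58 ± 0.38) were higher, with Runx1 (0.49 ± 0.17) and Spi1 (0.59 ± 0.22). Spi1 lost its call without any 1 of LPS replicates 1, 2 and 5 and saline replicates 1 to 4 (0.49 to 0.63). Runx1 lost its call without any 1 of LPS replicate 4 and saline replicates 1 to 4 (0.44 to 0.51). The number higher was 3 without any 1 of saline replicates 1 to 4. In TGF-beta signalling 6 of 12 genes were lower and 0 higher (median -0.48), among them Tgfbr2 (-0.87 ± 0.23) and the integrin subunit Itgav, which helps release latent TGF-beta (-0.88 ± 0.19). Leaving out LPS replicate 1 or 2 gave 1 higher gene, and Ski, a Smad corepressor, was at 0.07. Of 9 purinergic genes 4 were lower, including the ATP-gated channel P2rx7 (-1.0 ± 0.21), and 3 higher: P2ry2, a receptor for ATP and UTP (4.16 ± 0.92), the ATP-gated channel P2rx4 (0.44 ± 0.13) and the adenosine receptor Adora3 (0.77 ± 0.30). P2rx4 lost its call without saline replicate 2 (0.33). Adora3 lost its call without any 1 of LPS replicates 1 and 5 and saline replicates 1 to 4 (0.49 to 0.79). Without saline replicate 2, 1 was higher. P2ry2 was at 4.92 (log2 change) without saline replicate 2.

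Among genes of LPS sensing, 6 of 15 were higher and 0 lower (median 0.20). Cd14, the co-receptor that hands LPS to the Tlr4 complex, stood at 379 to 798 CPM (median 564) in the LPS libraries, against 122, 116, 134 and 132 CPM in the saline libraries, a log2 change of 2.23 ± 0.43 (SE, edgeR adjusted p = 0.000138). Every LPS library had more Cd14 than any saline library. The adaptor Tirap (0.84 ± 0.22) and the kinase Irak1 (0.66 ± 0.17) were also higher, and the ubiquitin ligase Traf6 (-0.02) was not called. Without LPS replicate 2, or with RLE size factors, 1 gene of the list was lower. Of 14 NF-kB and IkB genes 4 were higher (7 in a fit of the 10 libraries alone) and 0 lower (2 under limma voom). The 4 higher were the IkB-like regulators Bcl3 (4.54 ± 0.45) and Nfkbiz (1.78 ± 0.58), the inhibitor Nfkbib (1.43 ± 0.33) and the kinase Ikbke (2.39 ± 0.85). Ikbke lost its call without any 1 of LPS replicate 1 and saline replicates 1 to 4 (0.92 to 2.51). The number higher was 2 without saline replicate 2, where Nfkbiz (1.68) was not called, and Ikbkg, the regulatory subunit of the IkB kinase, stood at -0.07. Feedback inhibitors rose in 9 of 15 members, with 1 lower (median 1.82), with Il10ra (-0.56 ± 0.19) the lower one. Il10ra lost its call without saline replicate 3 (-0.53). They included Usp18, which trims Isg15 and dampens interferon receptors (3.32 ± 0.52), the checkpoint ligand Cd274 (3.02 ± 0.47), the corepressor Sbno2 (1.40 ± 0.25), the suppressor of cytokine signalling Socs3 (2.27 ± 0.53), the RNase Zc3h12a (1.87 ± 0.50) and the receptor antagonist Il1rn (5.99 ± 1.43). Socs1 (0.71) was not called. Il1rn was at 511 CPM in LPS replicate 1 and at 13.7 to 31.8 CPM in the other LPS libraries. Cd274 was at 2.32 and Il1rn at 3.78 (log2 change) without LPS replicate 1.

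Cytokine and decoy genes were higher in 10 of 19 and lower in 2 (median 2.36). Tnf, the tumour necrosis factor gene, stood at 200.2 to 738 CPM (median 577) in the LPS libraries, against 42.5, 45.7, 72.6 and 61.6 CPM in the saline libraries, a log2 change of 3.31 ± 0.77 (SE, edgeR adjusted p = 0.00133). The lowest LPS library, replicate 6, was still above every saline library. Il1b, the precursor of interleukin 1 beta, stood at 184 to 940.5 CPM (median 208) in the LPS libraries, against 23.6, 22.1, 28.8 and 37.0 CPM in the saline libraries, a log2 change of 3.58 ± 1.23 (SE, edgeR adjusted p = 0.0253). The other LPS libraries lay close together and LPS replicate 2 (940.5 CPM) far above them. The Il1b call was lost without any 1 of LPS replicate 2 and saline replicates 1 to 4 (2.93 to 3.74). Il18bp, which traps interleukin 18 (2.11 ± 0.31), Osm, an interleukin 6 family cytokine (3.63 ± 0.77), Csf1, the ligand of Csf1r (2.36 ± 0.66), Il6 (2.52 ± 0.74) and Tnfsf9, the ligand of 4-1BB (3.77 ± 0.82), rose. Il15 (-1.82 ± 0.46) and Tgfb1 (-0.66 ± 0.24) fell, and Il18 (-0.12) did not pass. Tgfb1 lost its call without any 1 of LPS replicates 1 and 6 and saline replicates 2 to 4 (-0.66 to -0.54).

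Chemokine genes rose in 12 of 14 and fell in 1 (median 4.30, or 3.88 with Cxcl13, which was at 0 in all saline libraries, at its bound). Cxcl13 lost its call without any 1 of LPS replicate 2 and saline replicates 1 to 4 (edgeR adjusted p = 0.0548 to 0.0975). Ccl12, a monocyte-attracting chemokine, stood at 51.5 to 1690.5 CPM (median 140.2) in the LPS libraries, against 11.2, 9.94, 14.1 and 16.9 CPM in the saline libraries, a log2 change of 4.99 ± 1.12 (SE, edgeR adjusted p = 0.000939). Cxcl10, an interferon-inducible ligand of Cxcr3, stood at 32.3 to 519 CPM (median 82.1) in the LPS libraries, against 8.59, 9.72, 13.8 and 10.4 CPM in the saline libraries, a log2 change of 4.03 ± 0.83 (SE, edgeR adjusted p = 0.000355). LPS replicate 2 was highest for Ccl12, and no LPS library overlapped the saline libraries for either gene. The lymphocyte attractant Ccl5 (7.59 ± 1.15), the neutrophil attractant Cxcl2 (5.74 ± 1.04) and the membrane-bound Cxcl16 (2.12 ± 0.36) rose as well. Ccl5 stood at 497 CPM in LPS replicate 1 and 38.1 to 74.9 CPM in the others. Ccl2, the main ligand of Ccr2, rose by 2.40 ± 0.80 on the log2 scale and lost its call without LPS replicate 2 (1.93), saline replicate 2 (2.31) or saline replicate 4 (2.34). Ccl6 was the member that fell (-1.37 ± 0.32), and Ccl9 (0.46) was not called. Without saline replicate 2, 9 members rose, and without LPS replicate 1 too, 8. Cxcl10 was at 3.30 and Ccl5 at 6.37 (log2 change) without LPS replicate 1. Ccl12 was at 3.60 (log2 change) without LPS replicate 2. Ccl5 was at 8.24 (log2 change) without saline replicate 3.

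**Figure D3:**
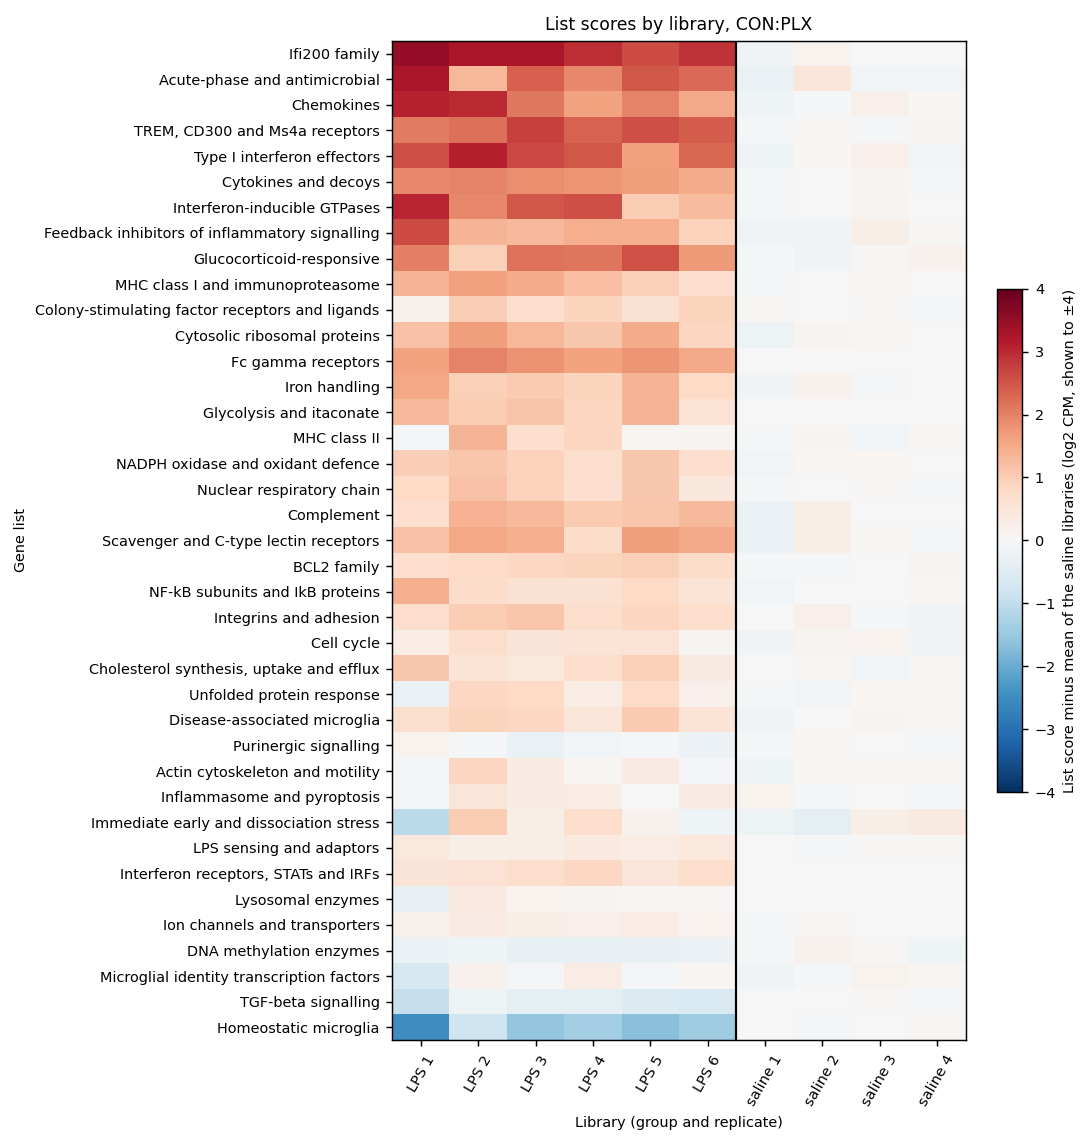
Mean log2 CPM of each gene list in each library, minus the mean of the 4 saline libraries (colour, red above and blue below), with the 6 LPS libraries left of the line and the saline libraries right of it. LPS replicate 1 has the lowest homeostatic score (7.03) and LPS replicate 2 the highest of its group (8.72).

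The interferon pathway rose at its transcription factors and effectors. Of 17 receptor, STAT and IRF genes 6 were higher and 0 lower (median 0.18). They included Irf7 (3.49 ± 0.41), which amplifies interferon production, Stat2 (2.40 ± 0.29), Irf9 (1.13 ± 0.17), Stat3 (1.23 ± 0.21) and Irf1 (1.29 ± 0.33). The receptor chains Ifnar1 (-0.12) and Ifnar2 (-0.15) and the factor Irf3 (-0.05) did not pass. Of 34 effectors 33 were higher, with a median log2 change of 2.71, and only Ifit3b (1.49 ± 0.81) was not called. Without LPS replicate 1 and saline replicate 2 together, 30 were higher. Isg15, a ubiquitin-like modifier, stood at 6.87 to 21.2 CPM (median 14.9) in the LPS libraries, against 0.999, 0.884, 1.56 and 1.62 CPM in the saline libraries, a log2 change of 3.50 ± 0.47 (SE, edgeR adjusted p = 5.04e-07). Ifitm3, a membrane protein that blocks virus entry, stood at 123 to 378 CPM (median 181) in the LPS libraries, against 3.59, 5.30, 10.3 and 5.19 CPM in the saline libraries, a log2 change of 5.11 ± 0.62 (SE, edgeR adjusted p = 2.15e-07). Both genes separated the groups fully. The secreted glycoprotein Lgals3bp (2.81 ± 0.21), the nucleic acid sensor Zbp1 (5.41 ± 0.59), Rtp4 (3.78 ± 0.43), Slfn5 (3.93 ± 0.48), Ifitm2 (5.03 ± 0.65) and Ifit1, which binds viral RNA (4.04 ± 0.66), were among the others that rose. Ifitm2 was at 6.37 (log2 change) without saline replicate 2.

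The letters of the interferon-stimulated response element were searched on both strands as GAAA, any 2 bases and GAAA in RefSeq promoter windows (GRCm38.p6, 250 bases before to 50 after the start). They stood in 16 of 26 effectors with a window (61.5%), in 6.99% of 1803 genes called higher, in 2.68% of 1194 called lower, in 3.98% of 9212 tested and in 3.99% of all 27025 promoters. Among 123 genes more than 16-fold higher the share was 17.9%, with 5.69% for the NF-kB-like and 11.4% for the STAT-like letters described next. The NF-kB-like letters, GGG, any 2 bases and TTTCC, stood in 2.27% of genes called higher, 1.09% called lower and 2.07% tested, and in none of the 26 effectors. The STAT-like letters, TTC, any 3 bases and GAA, stood in 9.04%, 7.71%, 8.52% and 26.9% of the same sets. These shares are a description and no test was run, and the STAT-like letters can overlap those of the response element. The 250 bases before the start are shown for 4 of the effectors with the smallest p that hold the response element there, with the matches in capitals (overlapping matches run together).
Slfn5 (chr11:82951852-82952101, plus strand): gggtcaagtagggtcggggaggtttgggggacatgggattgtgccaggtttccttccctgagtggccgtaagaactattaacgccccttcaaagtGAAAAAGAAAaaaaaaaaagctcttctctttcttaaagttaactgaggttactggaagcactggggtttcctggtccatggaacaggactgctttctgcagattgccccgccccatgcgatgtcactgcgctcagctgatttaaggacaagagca
Ifitm2 (chr7:140955962-140956211, minus strand): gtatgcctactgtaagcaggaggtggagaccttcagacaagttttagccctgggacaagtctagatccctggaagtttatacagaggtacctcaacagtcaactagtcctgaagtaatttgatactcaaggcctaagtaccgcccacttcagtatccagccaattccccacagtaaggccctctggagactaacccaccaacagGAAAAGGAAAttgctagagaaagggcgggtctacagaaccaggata
Isg15 (chr4:156200819-156201068, minus strand): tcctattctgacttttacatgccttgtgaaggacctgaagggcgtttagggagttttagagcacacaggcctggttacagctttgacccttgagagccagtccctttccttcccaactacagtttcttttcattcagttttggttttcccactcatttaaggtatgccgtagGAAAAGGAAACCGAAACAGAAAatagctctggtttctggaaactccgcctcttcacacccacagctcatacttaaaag
Ifit1 (chr19:34640639-34640888, plus strand): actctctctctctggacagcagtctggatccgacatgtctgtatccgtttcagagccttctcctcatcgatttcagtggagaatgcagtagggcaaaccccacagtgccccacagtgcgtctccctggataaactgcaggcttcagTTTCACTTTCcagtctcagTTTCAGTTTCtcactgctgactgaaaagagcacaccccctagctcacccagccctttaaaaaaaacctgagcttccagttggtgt
In Isg15 3 matches overlap, and in Ifit1 both matches lie on the other strand. Ifitm3 holds its 2 matches just after the start.

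GTPases that interferon induces and that act on vacuoles of intracellular pathogens rose in 12 of 16 (median 2.04), and none fell. Gvin1 (1.99 ± 0.23), Gbp2 (5.10 ± 0.62) and Ifi47 (4.09 ± 0.65) had the smallest p and Tgtp1 (1.07) the largest. Tgtp1 has a near-identical copy, Tgtp2, so reads may be split between them. Of 9 Ifi200 family genes, which sense DNA in the cytoplasm and nucleus, 7 rose (median 4.75), with Ifi207 at 6.14 ± 0.38, Ifi204 at 5.39 ± 0.37 and Ifi211 at 7.6 ± 0.69, while Ifi203 (-0.19) and the inflammasome sensor Aim2 (-0.09) did not pass. These genes are close in sequence, and counts may be shared among them. Gbp2 was at 4.42 (log2 change) without LPS replicate 1.

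Genes of antigen presentation by MHC class I rose in RNA, 15 of 20 with 0 lower (median 1.34). Nlrc5, the transactivator of class I genes, stood at 30.1 to 112 CPM (median 89.3) in the LPS libraries, against 3.59, 3.98, 5.81 and 4.54 CPM in the saline libraries, a log2 change of 4.13 ± 0.46 (SE, edgeR adjusted p = 2.97e-08). B2m (1.41 ± 0.18), the proteasome activator Psme1 (1.83 ± 0.23), the peptide transporter Tap1 (1.70 ± 0.26) and the heavy chains H2-K1 (1.28 ± 0.22) and H2-D1 (1.42 ± 0.23) rose with it, and the immunoproteasome subunit Psmb9 (0.46) had the largest p. Among 7 class II genes 2 rose and 0 fell: the invariant chain Cd74 (2.61 ± 0.34) and H2-Ab1 (1.5 ± 0.43). Class II loading factor H2-DMb1 was at -0.10. Cd74 stood at 41.5 to 104 CPM (median 59.7) in the LPS libraries, against 10.6, 8.4, 11.8 and 10.7 CPM in the saline libraries. All LPS libraries held more Cd74 than any saline library, and replicate 2 held the most. Without LPS replicate 1 and saline replicate 2, 3 class II genes rose.

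Complement genes rose in 6 of 13, with 1 lower (median 0.88). The anaphylatoxin receptor C5ar1 (3.26 ± 0.36), C4b (5.19 ± 0.67), C1qb (1.15 ± 0.19), C3 (2.56 ± 0.44) and factor B, Cfb (2.94 ± 0.86), rose, and C5ar2 (-0.24) did not pass. The number lower was 0 without any 1 of LPS replicates 1, 4 and 5 and saline replicates 1 to 4. Fc receptors, which bind antibody on targets, rose in 5 of 6 (median 1.19). Fcgr4, an activating receptor for IgG, stood at 180.1 to 350.2 CPM (median 239) in the LPS libraries, against 7.19, 5.08, 5.14 and 4.87 CPM in the saline libraries, a log2 change of 5.46 ± 0.33 (SE, edgeR adjusted p = 2.96e-14). The groups were far apart. Fcgr3 (1.32 ± 0.16), Fcgr1 (1.06 ± 0.30), Fcgr2b (1.06 ± 0.21) and the shared signalling chain Fcer1g (1.31 ± 0.23) rose, and the neonatal receptor Fcgrt (0.47) was not called.

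Of 13 scavenger and C-type lectin receptors 5 rose and 0 fell (median 0.87). Marco, which binds bacteria, stood at 599 CPM in LPS replicate 1 and 15.9 to 72.6 CPM in the other LPS libraries, against 0.670 CPM in saline replicate 3 and 0 in the other saline libraries, a count ratio of 887 (95% interval 303 to 4301). The lectin Clec4d had a count ratio of 69.1 (95% interval 12.1 to 2756), its relative Clec4e rose by 4.21 ± 1.03 (log2), Stab1 is given with the macrophage markers, and the mannose receptor Mrc1 (-0.13) did not pass. TREM, CD300 and Ms4a genes rose in 10 of 13 and fell in 2 (median 4.05). Trem1, a receptor that amplifies myeloid activation, stood at 6.89 to 114 CPM (median 49.9) in the LPS libraries, against 0, 0, 0 and 0 CPM in the saline libraries, at least 308-fold higher after LPS. All LPS libraries held Trem1 reads, and no saline library did. Ms4a6d (4.05 ± 0.30), Ms4a6c (5.46 ± 0.42) and Treml2 (2.72 ± 0.22) rose, Trem2 and the inhibitory receptor Cd300a (-1.22 ± 0.22) fell, and the adaptor Tyrobp (0.63) was not called. All 4 acute-phase genes tested rose: Saa3, the siderophore-binding Lcn2 (6.12 ± 1.05; 0, 11.7, 0 and 0.649 CPM in saline replicates 1 to 4), the copper carrier Cp (2.45 ± 0.61) and the haemoglobin-binding Hp (2.64 ± 0.86), which lost its call without any 1 of LPS replicate 5 and saline replicates 1, 3 and 4 (2.22 to 2.54). Of 9 inflammasome genes 4 rose and 2 fell: the sensor Nlrp3 (1.49 ± 0.40), Naip2 (1.02 ± 0.25), the LPS-binding caspase Casp4 (1.38 ± 0.35) and Casp1 (0.49 ± 0.15) were higher, Nlrp1b (-1.29 ± 0.26) and Casp8 (-0.71 ± 0.18) lower, and Naip5 (-0.10) not called. Casp1 lost its call without saline replicate 3 (0.44). Naip2 and Naip5 are close paralogs, whose reads may be shared. Lcn2 was at 5.47, Cp at 1.48 and Clec4e at 3.59 (log2 change) without LPS replicate 1. Marco had a count ratio of 166 (95% interval 56.3 to 805) without LPS replicate 1. Lcn2 had a count ratio of 1512 (95% interval 419 to 12492) without saline replicate 2. Hp had a count ratio of 23.8 (95% interval 6.40 to 199.5) without saline replicate 2. Clec4d was at least 16.9-fold higher without saline replicate 2, where all saline libraries left are at 0. Clec4e was at least 41.3-fold higher without saline replicate 2, where all saline libraries left are at 0.

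Genes of disease-associated microglia, a state known from neurodegeneration models, moved both ways, with 8 of 17 higher and 4 lower. Spp1, the tetraspanin Cd63 (2.47 ± 0.25), the protease Ctsl (1.77 ± 0.22) and the galectin Lgals3 (3.33 ± 0.75) rose. The growth factor Igf1 (-2.12 ± 0.53), Ccl6, Ctsd and the tetraspanin Cd9 (-0.99 ± 0.19) fell, while Fabp5 (0.27) was not called.

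Metabolic genes rose in several groups. Glycolysis and itaconate genes were higher in 13 of 20 (median 1.09), with the glucose transporter Slc2a1 (1.46 ± 0.21), Gpi1 (1.37 ± 0.20) and the pyruvate kinase Pkm (1.52 ± 0.23) leading, and Pfkl (0.11) not called. Without LPS replicate 2, 4 or 5, or with RLE size factors, 1 member was lower. Acod1, the enzyme that makes itaconate, stood at 555 CPM in LPS replicate 1 and at 6.18 to 14.7 CPM in the other LPS libraries, against 0, 0, 0 and 0.324 CPM in saline libraries. Nuclear respiratory chain genes rose in 15 of 19 (median 0.92), among them Cox7a2 (1.55 ± 0.28) and the ATP synthase genes Atp5b (1.11 ± 0.18) and Atp5g1 (1.53 ± 0.28), with Sdha (-0.01) not called. All 34 cytosolic ribosomal protein genes rose (median 1.26), with Rpsa at 2.08 ± 0.32, Rps27a at 1.78 ± 0.27 and Rps14, which had the largest p, at 1.01 ± 0.32, and Rps14 was not called without saline replicate 1 (0.90). Many processed copies of these genes lie in the genome, and reads may be shared with them. Cholesterol genes rose in 6 of 21, and in 3 with both LPS replicate 1 and saline replicate 2 left out. They included Pmvk (3.04 ± 0.67), and Sc5d (0.06) was not called. Ch25h, which makes an antiviral oxysterol, stood at 250.4 CPM in LPS replicate 1 and 0 to 4.02 CPM in the others, and was not called without it, with a count ratio of 34.2 (95% interval 5.77 to 1388). Pmvk was at 2.10 (log2 change) without LPS replicate 1. Acod1 had a count ratio of 205 (95% interval 36.5 to 8145) without LPS replicate 1. Ch25h was at least 239-fold higher without saline replicate 2, where all saline libraries left are at 0. Acod1 was at least 619.8-fold higher without saline replicate 4, where all saline libraries left are at 0.

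Iron handling genes rose in 9 of 14 and fell in 2 (median 1.10). Fth1 stood at 1358 to 4851 CPM (median 2281) in the LPS libraries, against 400.2, 427, 432 and 427 CPM in the saline libraries. All LPS libraries exceeded all saline libraries in Fth1 RNA. The importer Slc39a14 (4.18 ± 0.47) and the transferrin receptor Tfrc (1.38 ± 0.39) rose, the exporter Slc40a1 (-2.10 ± 0.41) and the ferritin autophagy receptor Ncoa4 (-1.01 ± 0.14) fell, and Steap3 (0.74) was not called. With RLE size factors 7 iron genes rose, without LPS replicate 1, 6, and without it and saline replicate 2, 5. Of 17 oxidase and oxidant defence genes 10 rose (median 1.0). Cybb, the catalytic subunit of the phagocyte oxidase, stood at 55.0 to 234 CPM (median 114) in the LPS libraries, against 8.79, 10.6, 9.16 and 6.16 CPM in the saline libraries, a log2 change of 3.92 ± 0.49 (SE, edgeR adjusted p = 2.83e-07). The groups were fully apart. The peroxiredoxins Prdx1 (1.21 ± 0.20) and Prdx5 (1.64 ± 0.27) and the mitochondrial dismutase Sod2 (3.22 ± 0.72) rose, and Gclm (0.16) did not pass. With RLE size factors, or without LPS replicate 6, 1 member was lower. Lysosomal genes were split, 8 of 20 higher and 6 lower (5 higher without LPS replicate 2). Ctsl rose, Ctsf (-1.11 ± 0.23) and Hexa (-1.13 ± 0.23) fell with Ctsd, and Lamp2 (0.01) was not called. Sod2 was at 2.14 (log2 change) without LPS replicate 1.

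Genes that respond to glucocorticoids, the stress hormones, rose in 10 of 14 and none fell (median 1.79). Fkbp5, a chaperone of the glucocorticoid receptor, stood at 146 to 389 CPM (median 348) in the LPS libraries, against 74.7, 42.9, 94.9 and 121 CPM in the saline libraries, a log2 change of 1.84 ± 0.34 (SE, edgeR adjusted p = 8.81e-05). Zbtb16, a zinc finger factor, stood at 2.91 to 96.5 CPM (median 87.6) in the LPS libraries, against 0.20, 0.221, 0.893 and 0.324 CPM in the saline libraries, a log2 change of 7.32 ± 1.35 (SE, edgeR adjusted p = 0.000105). Both were higher in every LPS library, although LPS replicate 2 held only 2.91 CPM of Zbtb16. Klf9 (4.81 ± 0.71), the cell cycle inhibitor Cdkn1a (2.80 ± 0.49), the phosphatase Dusp1 (1.84 ± 0.43) and the metallothionein Mt2 (8.70 ± 1.80) rose as well, and the receptor gene Nr3c1 (0.01) was not called. Mt2 was at 693 CPM in LPS replicate 1 and 11.1 to 286 CPM in the others. Of 14 unfolded protein response genes 2 were higher (14.3%, beside 17.5% of all genes), the factors Atf4 (0.95 ± 0.19) and Atf6 (1.21 ± 0.27). Eif2ak3 (0.06) was not called. Without LPS replicate 4 or 6, 4 were higher. Immediate early and dissociation stress genes rose in 2 of 16 (12.5%, beside 17.5% of all genes). These were Dusp1 and Ier2 (1.27 ± 0.43), with Hspa1a (0.14) not called, and 1 rose without saline replicate 1 or 2. The call of Ier2 was lost without saline replicate 1 (1.18) or saline replicate 2 (1.14). Cell cycle genes rose in 5 of 15 and fell in 1, with Ccnd2 (3.72 ± 0.61) and Mcm6 (1.34 ± 0.29) higher beside Cdkn1a, and Mcm7 (0.03) not called. Mki67, a marker of dividing cells, was lower (-1.30 ± 0.40). Mki67 lost its call without saline replicate 2 (-0.72). The helicase subunit Mcm4 (0.96 ± 0.27) and the replication clamp Pcna (0.84 ± 0.23) rose too, and 2 members were lower without LPS replicate 4. Mt2 was at 7.54 (log2 change) without LPS replicate 1. Mt2 had a count ratio of 855 (95% interval 292 to 4148) without saline replicate 1. Ccnd2 was at 4.53 (log2 change) without saline replicate 2. Zbtb16 had a count ratio of 296 (95% interval 101 to 1436) without saline replicate 3.

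Of 11 BCL2 family genes, which set the threshold for cell death, 8 rose and 1 fell. Bcl2a1a (3.15 ± 0.44), Bcl2l1 (1.2 ± 0.18) and Bak1 (1.30 ± 0.24) had the smallest p, and Pmaip1 (0.02) the largest. Bcl2a1a has near-identical copies. Bcl2l11, which promotes cell death, fell (-1.07 ± 0.40). Bcl2l11 lost its call without any 1 of LPS replicates 1 to 3 and 5 and saline replicates 1 to 4 (-1.11 to -0.90). Receptors and ligands of colony-stimulating factors rose in 4 of 6, Csf1 with the receptor beta chains Csf2rb (1.81 ± 0.15) and Csf2rb2 (1.60 ± 0.17) and with Csf2ra (1.04 ± 0.33). Csf3r (-1.02 ± 0.45) was not called, and was called lower without LPS replicate 2 (-1.30). With RLE size factors 1 member of this list was lower. Among channels and transporters 5 of 19 rose (26.3%) and 2 fell (10.5%), beside 17.5% and 14.0% of all genes. Clic4 (2.88 ± 0.43) and the volume-regulated anion channel subunit Lrrc8a (1.24 ± 0.17) were higher. The sodium, potassium and chloride cotransporter Slc12a2 (-1.86 ± 0.21) was lower, and Trpm7 (-0.01) was not called. The potassium channel Kcna3, linked to microglial activation, rose by 4.46 ± 0.87, and the channel protein Clic1 by 1.02 ± 0.19. Actin genes rose in 6 of 17 and fell in 3, with the intermediate filament Vim (2.81 ± 0.63) and cofilin, Cfl1 (1.36 ± 0.23), higher, Srgap2 (-1.70 ± 0.17), Fscn1 (-1.27 ± 0.36) and Marcks (-1.04 ± 0.33) lower and Tmsb4x (0.27) not called. Marcks lost its call without saline replicate 3 (-0.94). Integrin and adhesion genes rose in 5 of 15 and fell in 1. The hyaluronan receptor Cd44 (4.54 ± 0.58), Itgal (5.98 ± 0.65), Itga5 (2.96 ± 0.33), Vcam1 (2.02 ± 0.42) and Itgb2 (0.98 ± 0.23) rose, Itgav fell, and Itgb3 (-0.01) was not called. The number lower was 2 without LPS replicate 1 or 2. Of 6 DNA methylation enzymes 2 fell, Tet1, an oxidase of methylated cytosine (-3.20 ± 0.33) and the methyltransferase Dnmt3a (-0.99 ± 0.22), and Dnmt1 (-0.05) was not called. Kcna3 had a count ratio of 43.2 (95% interval 11.8 to 359.9) without saline replicate 1. Itgal had a count ratio of 171 (95% interval 47.0 to 1412) without saline replicate 2.

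**Figure D4:**
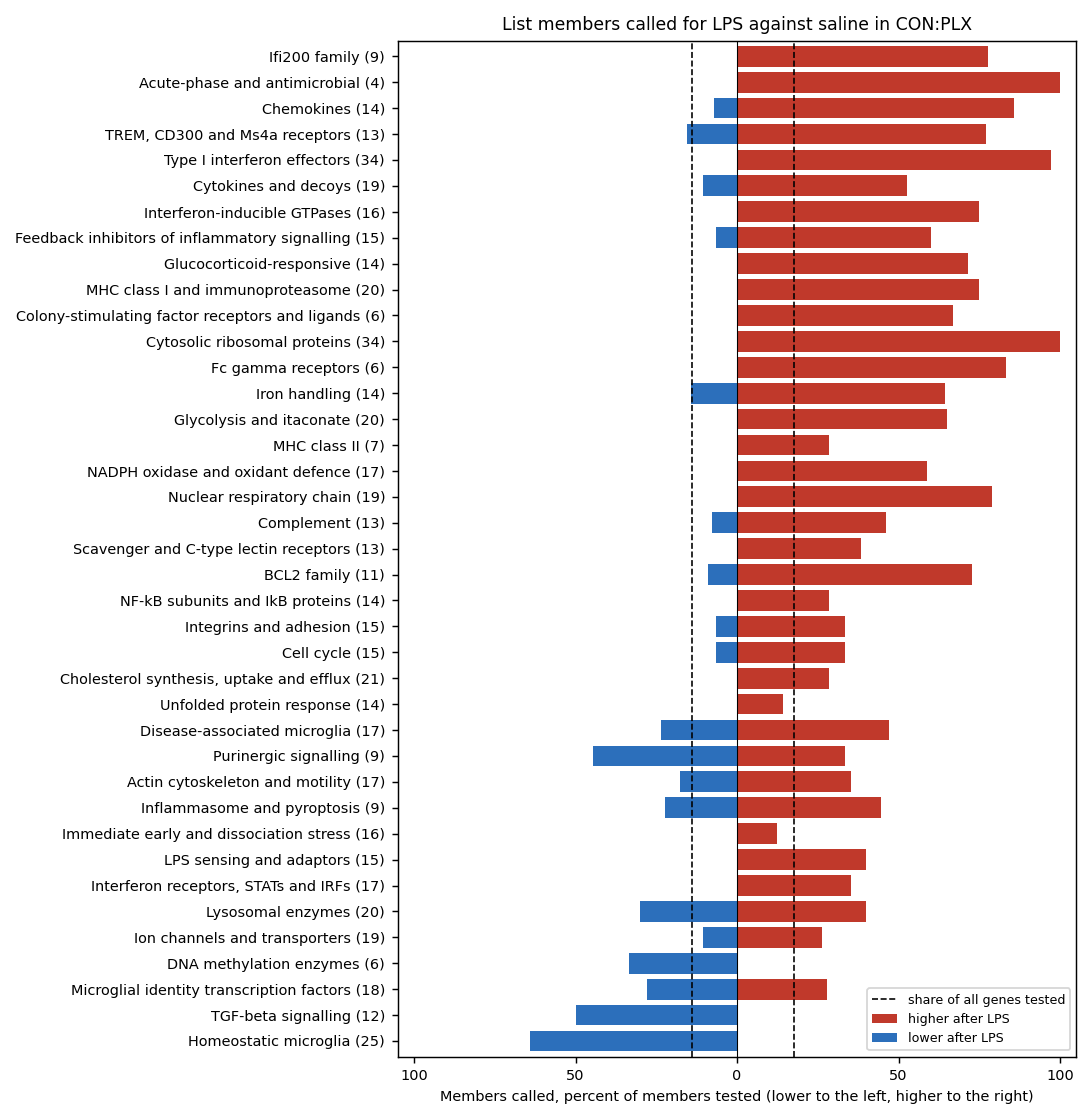
Share of the tested members (number in brackets) of each gene list called higher (red, to the right) or lower (blue, to the left) after LPS, in percent, ordered by median log2 change. Dashed lines mark the shares over all 13420 genes, 17.5% higher and 14.0% lower, and of the lists drawn, which leave out cell type markers, the homeostatic list is the furthest left with 16 of 25 lower.

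Some counts of list members moved by over 1.5 times under other settings, given here with the count of the main edgeR fit in brackets. With DESeq2 there were 1 lower in LPS sensing and adaptors (0), 2 lower in colony-stimulating factor receptors and ligands (0), 1 lower in glycolysis and itaconate (0), 1 lower in NADPH oxidase and oxidant defence (0), 1 lower in ion channels and transporters (2) and 3 lower in integrins and adhesion (1). With RLE size factors there were 1 lower in LPS sensing and adaptors (0), 1 lower in colony-stimulating factor receptors and ligands (0), 1 lower in glycolysis and itaconate (0) and 1 lower in NADPH oxidase and oxidant defence (0). With the libraries marked for exclusion included there were 0 lower in complement (1) and 0 lower in monocytes (1). With no low-count filter there were 1 lower in cytokines and decoys (2), 0 lower in complement (1), 3 higher in microglial identity transcription factors (5), 1 higher in purinergic signalling (3), 0 lower in BCL2 family (1), 1 higher in immediate early and dissociation stress (2), 1 higher in DNA methylation enzymes (0), 1 higher in border-associated macrophages (3), 0 lower in monocytes (1), 0 higher in neutrophils (1) and 2 lower in neutrophils (0). In a fit of the 10 libraries alone there were 7 higher in NF-kB subunits and IkB proteins (4), 1 lower in interferon receptors, STATs and IRFs (0), 0 lower in complement (1), 4 higher in unfolded protein response (2), 1 higher in DNA methylation enzymes (0), 0 higher in neurons (1), 1 lower in astrocytes (0), 2 higher in monocytes (4) and 0 lower in erythroid cells (2). With a stricter low-count filter there were 0 lower in complement (1), 1 higher in DNA methylation enzymes (0) and 0 lower in erythroid cells (2). Under limma voom there were 3 lower in LPS sensing and adaptors (0), 2 lower in NF-kB subunits and IkB proteins (0), 1 lower in interferon receptors, STATs and IRFs (0), 1 higher in homeostatic microglia (0), 1 higher in TGF-beta signalling (0), 2 lower in colony-stimulating factor receptors and ligands (0), 2 lower in glycolysis and itaconate (0), 10 higher in cholesterol synthesis, uptake and efflux (6), 7 higher in unfolded protein response (2), 1 lower in NADPH oxidase and oxidant defence (0), 3 lower in integrins and adhesion (1), 1 higher in astrocytes (0), 6 higher in neutrophils (1) and 0 lower in erythroid cells (2).

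Markers of other cell types bear on these results. Microglial markers were lower in 8 of 9, and their summed level was 3427 to 8131 CPM in LPS libraries, against 13378 to 14272 CPM in saline libraries. Neutrophil markers were higher in 1 of 6 tested (16.7%, beside 17.5% of all genes), the chemokine receptor Cxcr2 (2.79 ± 0.93). Cxcr2 lost its call without saline replicate 1 (2.35), saline replicate 3 (2.38) or saline replicate 4 (2.46). Cxcr2 stood at 1.14 to 10.3 CPM (median 7.80) in LPS libraries, against 0, 3.76, 0 and 0 CPM in saline libraries. Without saline replicate 2, 6 neutrophil markers were higher: Cxcr2, S100a8, S100a9, Ngp, Mmp8 and Retnlg. S100a8 and S100a9, the subunits of calprotectin, show the pattern. S100a8 stood at 9.27 to 13.1 CPM (median 11.8) in the LPS libraries, against 0, 19.0, 0 and 0.973 CPM in the saline libraries, a log2 change of 1.15 ± 0.95 (SE, edgeR adjusted p = 0.383). S100a9 stood at 10.0 to 15.0 CPM (median 12.8) in the LPS libraries, against 0, 37.3, 0 and 1.95 CPM in the saline libraries, a log2 change of 0.35 ± 1.02 (SE, edgeR adjusted p = 0.829). Both were called without saline replicate 2, S100a8 with a count ratio of 48.1 (95% interval 16.3 to 235) and S100a9 with a log2 change of 4.53. That library exceeds all LPS libraries in both genes, and the other saline libraries lie below all LPS libraries. Of the other members of that list, Ly6g, Mpo and Elane were at or near 0. No library held over 0.369 CPM of Ly6g, 0.221 CPM of Mpo and 0 of Elane. Erythroid genes were lower in 2 of 2 tested and in none without saline replicate 2. Hbb-bs stood at 0 to 2.07 CPM (median 1.17) in the LPS libraries, against 0.399, 70.3, 7.37 and 14.9 CPM in the saline libraries, a log2 change of -4.47 ± 1.10 (SE, edgeR adjusted p = 0.00205). Hba-a1 stood at 0 to 1.52 CPM (median 0) in the LPS libraries, against 0, 12.2, 0 and 0.649 CPM in the saline libraries, too low to test. Without saline replicate 2 Hbb-bs stood at -2.83 and its near copy Hbb-bt (-4.30 ± 1.01) at -2.37, neither called. Cxcr2 was at least 26.4-fold higher without saline replicate 2, where all saline libraries left are at 0.

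Monocyte markers were higher in 4 of 6 and lower in 1 (5 and 0 without saline replicate 2), with a summed level of 62.9 to 643 CPM in LPS libraries, against 10.8 to 21.9 CPM in saline libraries. In LPS libraries Fn1 took most of that sum. Fn1 stood at 32.4 to 624 CPM (median 208) in the LPS libraries, against 0.799, 4.42, 4.47 and 4.87 CPM in the saline libraries. Vcan rose (1.81 ± 0.48), as did Plac8, with a count ratio of 28.1 (95% interval 4.75 to 1136), and Chil3 (0.83) did not pass, but did without saline replicate 2, with a count ratio of 19.3 (95% interval 5.16 to 162). S100a6, a calcium-binding protein, was higher (2.60 ± 0.95) and Ccr2 lower (-1.30 ± 0.51). S100a6 lost its call without any 1 of LPS replicates 4 and 5 and saline replicates 1, 3 and 4 (2.18 to 2.54). Ccr2 lost its call without any 1 of LPS replicates 1 to 5 and saline replicates 1 to 4 (-1.40 to -1.06). Ly6c2, a marker of inflammatory monocytes, stood at 0.295 to 1.85 CPM (median 1.44) in LPS libraries and 0, 0.442, 0 and 0 CPM in saline libraries, too low to test. Border-associated macrophage markers rose in 3 of 8 (1 without saline replicate 1 or 3), Siglec1 (5.12 ± 0.62) and F13a1 (2.30 ± 0.76) and Stab1 (0.87 ± 0.32) among them, and Mrc1 did not pass. F13a1 lost its call without saline replicate 1 (2.13) or saline replicate 3 (2.19), and Stab1 without any 1 of LPS replicates 3 to 6 and saline replicates 1 to 4 (0.80 to 0.89). Neurons had 1 of 5 higher (20%, beside 17.5% of all genes), Gad2 (1.61 ± 0.58), with Rbfox3 at 0.11. Gad2 lost its call without any 1 of LPS replicates 3 to 5 and saline replicates 1, 3 and 4 (1.34 to 1.68). Astrocyte and oligodendrocyte markers had none called, with Gja1 at 0.10 and Mag at -0.12. Endothelial genes were lower in 2 of 5, Kdr (-2.23 ± 0.57) and Pecam1 (-1.41 ± 0.31), with Flt1 (0.18) not called. Lymphocyte markers summed to 0 to 1.0 CPM in LPS libraries and 0 to 2.21 CPM in saline libraries and none was tested. The part of these cell types in the changes above was not tested. Kdr was at -2.97 (log2 change) without LPS replicate 2. Plac8 was at least 6.61-fold higher without saline replicate 1, where all saline libraries left are at 0. S100a6 was at least 8.46-fold higher without saline replicate 2, where all saline libraries left are at 0.

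The LPS effect in this arm was set against that in the arm without PLX, CON:CON, and that in MIA:PLX, by interaction contrasts over libraries that the arms do not share. No gene differed at an adjusted p under 0.05, in 0.0% of 13420 genes for either contrast, by edgeR, DESeq2 or limma voom. At an unadjusted p under 0.05, 356 genes (2.65%) passed in the contrast with CON:CON by edgeR, 412 by DESeq2 and 701 by voom. In the contrast with MIA:PLX they were 393 (2.93%), 456 and 1106. Chance alone puts about 1 in 20 genes under that threshold. The edgeR and DESeq2 counts lie below that share in both contrasts, and the voom counts lie above it in both. Among genes called in CON:PLX the median standard error of the difference was 0.42 on the log2 scale against either arm, so a p that misses the threshold does not show that the effects are alike. P2ry12 changed by -3.25 in CON:PLX and by -3.08 in CON:CON, a difference of -0.18 ± 0.48, and by -3.10 in MIA:PLX, a difference of -0.15 ± 0.48. Tnf changed by 3.31 in CON:PLX and by 3.70 in CON:CON, a difference of -0.39 ± 1.0, and by 3.87 in MIA:PLX, a difference of -0.56 ± 1.0. Isg15 changed by 3.50 in CON:PLX and by 3.78 in CON:CON, a difference of -0.27 ± 0.69, and by 2.83 in MIA:PLX, a difference of 0.67 ± 0.71. Each of these differences was smaller than its standard error.

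List medians are given side by side, without a test. The median log2 change of cytosolic ribosomal proteins was 1.26 in CON:PLX, 0.60 in CON:CON and 0.63 in MIA:PLX. For MHC class II it was 1.04, -0.27 and -0.23 in that order. For homeostatic microglia it was -1.39, -1.34 and -1.28, and for type I interferon effectors 2.71, 2.67 and 2.23. Of the class II genes only 2 of 7 were called in CON:PLX. Their list score was 2.65, 2.79 and 2.81 in LPS replicates 1, 5 and 6, beside 2.60 to 2.81 in saline libraries. It was 4.06, 3.40 and 3.57 in LPS replicates 2, 3 and 4.

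**Figure D5:**
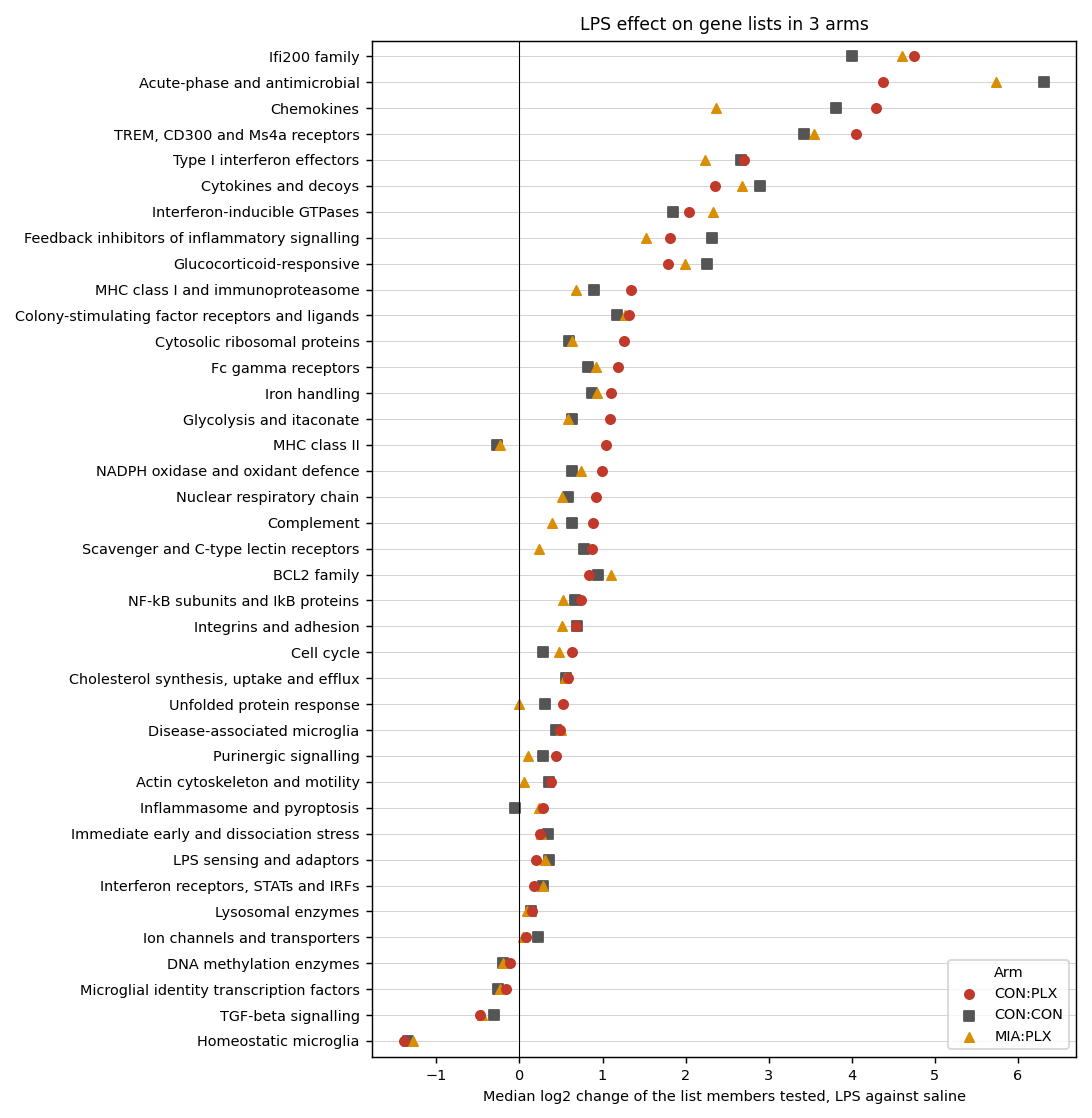
Median log2 change for LPS against saline of each gene list in CON:PLX (circles), CON:CON (squares) and MIA:PLX (triangles), ordered by the median in CON:PLX. No error is drawn, the chemokine median takes Cxcl13 at its fitted value, and the arms were compared gene by gene with no call at an adjusted p under 0.05.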

How the data were processed

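RNA was measured in sorted striatal microglia. The values deposited by the authors are estimated counts per gene (expected counts), with 14.7% of nonzero values not whole, and STAR, RSEM and DESeq2 are named without roles or versions, per the submitters' processing notes. Neither build nor annotation is given in the sources used here. Symbols came from GENCODE M21, in which 55141 of 55487 identifiers matched. Genes without a symbol held 0.0131% of counts.

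Counts were rounded. The titles of 2 libraries ask for exclusion, so 37 libraries in 8 groups were fitted with 1 mean per group by edgeR 4.0.16 quasi-likelihood (R 4.3.3) with TMM scaling, robust dispersion and filterByExpr (minimum count 10, minimum total 15), which kept 13420 genes and removed 15530 with a count. P-values are two-sided and adjusted by Benjamini-Hochberg, and a gene was called under 0.05. Standard errors are the log2 change divided by the square root of F, and log2 changes after the sign ± carry that error. A fold over saline libraries that were all at 0 was bounded from below by 3 counts over that group, and with 1 to 3 counts it is a ratio with a 95% exact interval. Scores of lists are means of log2 CPM over members (prior count 2). The fit was tested on simulated data, where a first criterion on the share of changed genes recovered was missed and was replaced by others after that outcome was seen. Alternatives were other size factors, DESeq2 1.42.0, limma 3.58.1 voom, other filters, other sets of libraries, mitochondrial ribosomal RNA left out, and a replicate block. No 2 of the 10 libraries agreed within counting noise. Promoter windows came from RefSeq (GRCm38.p6). Reads carry no strand, so genes that overlap or lie antisense are uncertain. Intervals and bounds cover counting error only.

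The members and gene lists were chosen with earlier results of these data known. The rule for named genes took marker, sort and cytokine genes always, the 10 genes furthest up and the 10 furthest down among called genes without overlap whose mean log2 CPM was 4 or more, the 8 with the largest gain and the 8 with the largest loss of CPM, and from each list up to 3 called genes with the smallest p and the gene with the largest p. Some genes that the rule took are not reported here. Named beyond it, after their values were seen, were Acod1, Adgrg1, Adora3, Aim2, Bcl2l11, C3, Casp1, Casp8, Ccl12, Ccl6, Ccr2, Cd300a, Cd9, Cebpa, Cfb, Clec4e, Clic1, Csf2ra, Cxcl13, Elane, Fcgr1, Fcgr2b, Fscn1, H2-D1, H2-K1, Ifit1, Ifitm2, Ifitm3, Ifnar1, Ifnar2, Igf1, Ikbke, Il10ra, Il15, Il1rn, Il6, Irf1, Isg15, Itgb2, Kcna3, Klf4, Lgals3, Ly6c2, Ly6g, Marcks, Mcm4, Mef2a, Mki67, Mmp8, Mpo, Mt2, Ngp, Nlrp3, Olfml3, P2rx4, P2ry2, Pcna, Retnlg, Runx1, S100a6, Selplg, Slc40a1, Slfn5, Socs3, Sod2, Spi1, Stat3, Tap1, Tfrc, Tgfb1, Tgfbr2, Tnfsf9, Trem1, Trem2, Vcam1, Zbtb16, Zc3h12a.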

Additional observations from a re-analysis of the deposited data

Results flagged for a closer look

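A value was singled out where the gap between the highest or lowest library and its nearest neighbour, divided by the range of its group, passed Dixon's 95% critical value. Of 640 groups of values examined 67 were singled out. Chance flags about 1 in 20 groups, here 32, where values are normal, which CPM near 0 are not. Where the other libraries of a group are all at 0, any read is flagged. The 67 set against 32 is therefore no measure of an excess. Genes also share libraries, so the values of 1 library are not independent. Values are followed in brackets by the range of the other libraries of the group. LPS replicate 1 held the highest level of its group, in CPM, for Slc7a11 1572 (18.1 to 119), AW112010 503 (59.1 to 225), Fth1 4851 (1358 to 2559), Traf6 76.8 (53.2 to 60.2), Cd274 381 (53.9 to 119), Ccl5 497 (38.1 to 74.9), Ccl9 186 (34.5 to 60.4), Gbp2 401 (36.7 to 136), Tgtp1 8.34 (0 to 3.01), Marco 599 (15.9 to 72.6), Cp 352 (24.2 to 73.9), Pmvk 89.6 (3.18 to 21.2), Ch25h 250.4 (0 to 4.02), Nr3c1 361 (139.8 to 216), Acod1 555 (6.18 to 14.7), Ikbke 128 (3.71 to 25.8), Il1rn 511 (13.7 to 31.8), P2ry2 31.3 (5.90 to 13.4), Socs3 678 (238 to 401), Sod2 1242 (90.0 to 279), Zc3h12a 66.1 (20.1 to 34.1). LPS replicate 1 held the lowest level of its group, in CPM, for Fcgrt 13.1 (40.8 to 51.7). LPS replicate 1 had the highest list score (mean log2 CPM) of its group for these lists: NF-kB subunits and IkB proteins 6.73 (5.86 to 6.12), Feedback inhibitors of inflammatory signalling 7.08 (5.39 to 5.95). LPS replicate 2 held the highest level of its group, in CPM, for Il1b 940.5 (184 to 263), Slc2a5 28.3 (0.569 to 8.67), Cfap74 35.0 (3.68 to 12.02), Tppp 25.2 (3.03 to 8.49), Gpr165 37.6 (2.65 to 12.98), Tmsb4x 2094 (449 to 991), Adgrg1 207 (35.8 to 88.3), Ccl12 1690.5 (51.5 to 355), Marcks 1004 (315 to 459.8), Mcm4 25.2 (8.85 to 14.6), Olfml3 762 (85.7 to 184), Tgfbr2 465 (155 to 222). LPS replicate 5 held the highest level of its group, in CPM, for Spp1 334 (46.9 to 151). LPS replicate 6 held the lowest level of its group, in CPM, for Tnf 200.2 (546 to 738). Saline replicate 1 held the highest level of its group, in CPM, for Irf3 58.5 (47.9 to 49.6), Fcgr4 7.19 (4.87 to 5.14), P2ry13 1071 (906 to 927), Eif2ak3 29.4 (21.4 to 22.3), Plac8 0.20 (0 to 0). Saline replicate 1 held the lowest level of its group, in CPM, for Fn1 0.799 (4.42 to 4.87), Fth1 400.2 (427 to 432). Saline replicate 1 had the lowest list score (mean log2 CPM) of its group for these lists: Actin cytoskeleton and motility 7.46 (7.67 to 7.69). Saline replicate 2 held the highest level of its group, in CPM, for S100a8 19.0 (0 to 0.973), S100a9 37.3 (0 to 1.95), Clec4d 0.221 (0 to 0), Lcn2 11.7 (0 to 0.649), Gpi1 66.1 (51.3 to 52.2), Ch25h 0.221 (0 to 0), Chil3 5.97 (0 to 0.649), Cxcr2 3.76 (0 to 0), Hbb-bt 29.8 (0.399 to 4.02), C3 8.84 (4.19 to 4.69), Clec4e 1.77 (0 to 0), S100a6 1.10 (0 to 0). Saline replicate 2 held the lowest level of its group, in CPM, for Casp4 29.2 (34.1 to 34.4), P2rx4 38.9 (52.3 to 54.5). Saline replicate 2 had the highest list score (mean log2 CPM) of its group for these lists: astrocytes 3.21 (2.48 to 2.58), neutrophils 2.23 (-0.70 to -0.34). Saline replicate 3 held the highest level of its group, in CPM, for Ifi207 7.82 (3.89 to 4.39), Marco 0.670 (0 to 0). Saline replicate 4 held the highest level of its group, in CPM, for Cd300lf 3.24 (0.599 to 0.893), Acod1 0.324 (0 to 0). Saline replicate 4 held the lowest level of its group, in CPM, for Sod2 25.3 (39.3 to 41.3).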

How the results depend on the processing

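The counts of genes changed by LPS kept within 1.5 times of those reported under each alternative run, with 1 exception: limma voom with quality weights called 3115 lower, with 3290 higher. RLE size factors gave 2184 and 2031, DESeq2 2351 and 2220, no low-count filter 1941 and 1640, a stricter filter 2372 and 1904, a fit of the 10 libraries alone 2385 and 2012, and the libraries marked for exclusion included 2310 and 1833. Leaving out 1 library at a time gave 1903 to 2425 higher and 1549 to 1961 lower. LPS replicate 1 and saline replicate 2 were left out together as an alternative chosen after seeing the data, with 1767 and 1363. The labels do not say whether replicate numbers pair the libraries. Deviations of same-numbered LPS and saline libraries correlated at -0.038 to 0.022, and those of other pairs at -0.178 to 0.182. So few pairs cannot decide whether libraries of 1 number share a factor. A fit with the number as a replicate block called 2448 higher and 2099 lower. The differences between arms gave 0 calls in each of these fits. Genes that were not called changed sign under some settings, most lying near 0. The cause was not tested. On the log2 scale they were Pmaip1 -0.0224, Nr3c1 -0.0351, Mcm7 -0.007 and Lamp2 -0.0341 under DESeq2; Pmaip1 -0.0171, Nr3c1 -0.0355, Mcm7 -0.0034 and Lamp2 -0.0342 under RLE size factors; Lamp2 -0.0023 in a fit of the 10 libraries alone; Traf6 0.0027, Ifi203 0.15, Ski -0.10, Pmaip1 -0.0714, Sdha 0.0014, Hspa1a -0.21, Nr3c1 -0.0079, Mcm7 -0.0417, Lamp2 -0.0172 and Rbfox3 -0.10 under the replicate block; Sdha 0.0027, Trpm7 0.006 and Itgb3 0.0022 under the stricter filter; Nr3c1 -0.15, Lamp2 -0.0666 and Itgb3 0.0394 under voom. Leaving out 1 library, or LPS replicate 1 and saline replicate 2 together, gave changes of both signs for S100a9 (-0.0706 to 4.59), Traf6 (-0.13 to 0.007), Ikbkg (-0.16 to 0.0226), Il18 (-0.26 to 0.0142), Ccl9 (-0.12 to 0.60), Irf3 (-0.13 to 0.0407), Naip5 (-0.27 to 0.0336), H2-DMb1 (-0.21 to 0.12), Mrc1 (-0.60 to 0.10), Ski (-0.0509 to 0.26), Pmaip1 (-0.12 to 0.14), Fabp5 (-0.0332 to 0.55), Pfkl (-0.0292 to 0.20), Sdha (-0.10 to 0.0313), Sc5d (-0.0423 to 0.14), Hspa1a (-0.0677 to 0.38), Nr3c1 (-0.26 to 0.10), Mcm7 (-0.11 to 0.23), Lamp2 (-0.0712 to 0.0605), Dnmt1 (-0.22 to 0.12), Trpm7 (-0.0754 to 0.0638), Tmsb4x (-0.0843 to 0.43), Itgb3 (-0.14 to 0.18), Rbfox3 (-0.28 to 0.41), Gja1 (-0.0344 to 0.24), Mag (-0.24 to 0.0076) and Flt1 (-0.19 to 0.61). Depth limits the low genes: for a group total of 0 the expected count was bounded at 3, an approximate 95% limit and not a maximum. Intervals and such bounds cover counting error only.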
